A study of Homo sapiens with 6 samples.

Results

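The genes described here encode 36 factors that assemble the small (40S) ribosomal subunit in human cells: proteins of the small-subunit processome and proteins that finish the 40S particle. They were taken by symbol from an expected count table of 59251 gene rows, and all 36 were found and were among the 14808 genes with enough counts to be tested. Total RNA came from HCT116, an epithelial line from a human colorectal carcinoma. The WT group (3 libraries) carried wild-type eIF6, and the MUT group (3 libraries, eIF6-N106S) came from clones made homozygous for that substitution with CRISPR/Cas9. Both groups were grown in the same serum-containing medium, with no agent added that separates them, and were harvested below confluence. How many clones stand behind the 3 MUT libraries, and whether the replicates were separate cultures, is not given in the labels, so a p-value here speaks only of variation among these libraries, part or all of which could be technical. The study asks how targeting eIF6, which keeps the large ribosomal subunit from joining the small one, affects ribosome pools and growth.

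In the nucleolus, the small-subunit processome forms on the nascent precursor of ribosomal RNA. The UTP-A complex binds the 5' end of that precursor, UTP-B follows, and the U3 small nucleolar RNA pairs with the transcript so that the precursor can be folded and cut around the 18S sequence. Export and maturation factors then carry the pre-40S particle to the cytoplasm, where the endonuclease NOB1 makes the last cut that gives 18S rRNA. Dividing tumour lines depend on this pathway for new ribosomes.

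Libraries held 53986494 to 87656970 counts, but 7SL, 7SK, RPPH1 and RMRP RNA took 62.7% to 84% of them, which left 10252501 to 21984081 counts for all other genes. MUT replicate 2 stood apart: rows named for 18S, 28S, 5.8S and 45S rRNA took 3.91% of its counts, against 1.16% in WT replicate 1 and 0.0891% to 0.234% in the other 4 libraries. EIF6 itself lay between 43.3 and 47.9 CPM (counts scaled by library size and TMM factor) in WT and between 30.7 and 36.7 CPM in MUT. Its log2 fold change was -0.43 (SE 0.12, adjusted p = 0.11 in edgeR's quasi-likelihood test). Over the alternative fits the adjusted p for EIF6 ran from 0.0442 to 0.885. The edit changes an amino acid, so this level does not check the genotype. The 6 epithelial markers summed to 19168 to 33620 counts in WT and 29006 to 43806 in MUT, mostly from KRT8, KRT18 and KRT19. CDH1, the gene of E-cadherin, had 54, 35 and 37 counts in WT and 31, 23 and 14 in MUT, and VIL1 had at most 6 counts in a library. The 6 markers of blood, vessel and connective tissue cells summed to 22 to 38 counts in WT and 37 to 87 in MUT, nearly all from COL1A1, and PTPRC and CD3E were at 0 in all libraries.

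No member passed an adjusted p of 0.05 when MUT was compared with WT by edgeR's quasi-likelihood test (0 of 36, where 1.91% of all tested genes passed, 0.986% higher and 0.925% lower). Differences were small and mostly upward. Of the 36, 25 (69.4%) had a log2 fold change above 0 and 11 below, where 48.7% of all tested genes were above 0. The members had a median of 0.11 and a range from -0.49 (RIOK2) to 0.67 (MPHOSPH10), while the median of all tested genes was -0.01. In 12 members every MUT library lay above every WT library in CPM (33.3%), and 12.8% of all tested genes did so. In 1 member, UTP4, every MUT library lay below every WT library (2.78%, against 13.4% of all tested genes). Without MUT replicate 2 that count was 4 (11.1%, against 20.1% of all tested genes). At an unadjusted p below 0.05 in edgeR's test, 10 members were higher and 1 lower, where 9.79% and 9.84% of all tested genes were, or 19.6% in either direction. In the 4 libraries low in ribosomal RNA, 6 members (16.7%) had an unadjusted p below 0.05, against 18% of all tested genes. DESeq2's Wald test called 2 members (EMG1, adjusted p = 0.0379, and WDR75, adjusted p = 0.0388), where it called 5.16% of all genes; 8 members had an unadjusted p below 0.05 there, against 16.8% of all genes. edgeR without a low-count filter called 4 (WDR75, NOL11, MPHOSPH10 and NOL6), where it called 4.07% of all genes. limma-voom called 0 members (1.77% of all genes), with 10 (27.8%) at an unadjusted p below 0.05, against 19.8% of all genes. The members called were also 0 with DESeq2's size factors in edgeR (1.92% of all genes), library size alone (0.729%), a robust fit (3.73%), a minimum of 1 CPM in 3 libraries (4.66%), without the abundant noncoding RNA (1.82%) and in the 4 libraries low in ribosomal RNA (2.66%). With 1 library left out, 0 members were called each time, where the share of all genes called was 0.196%, 0.177% and 0.392% without WT replicate 1, 2 or 3 and 0.262%, 2.9% and 0.26% without MUT replicate 1, 2 or 3. In bulk RNA, fewer cells of a kind and less RNA per cell cannot be told apart. On simulated counts edgeR's test called 3.23% of 1.5-fold changes, so a missing call does not show that a member was unchanged. The list was not tested as a set, and its counts are a description.

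**Figure D1:**
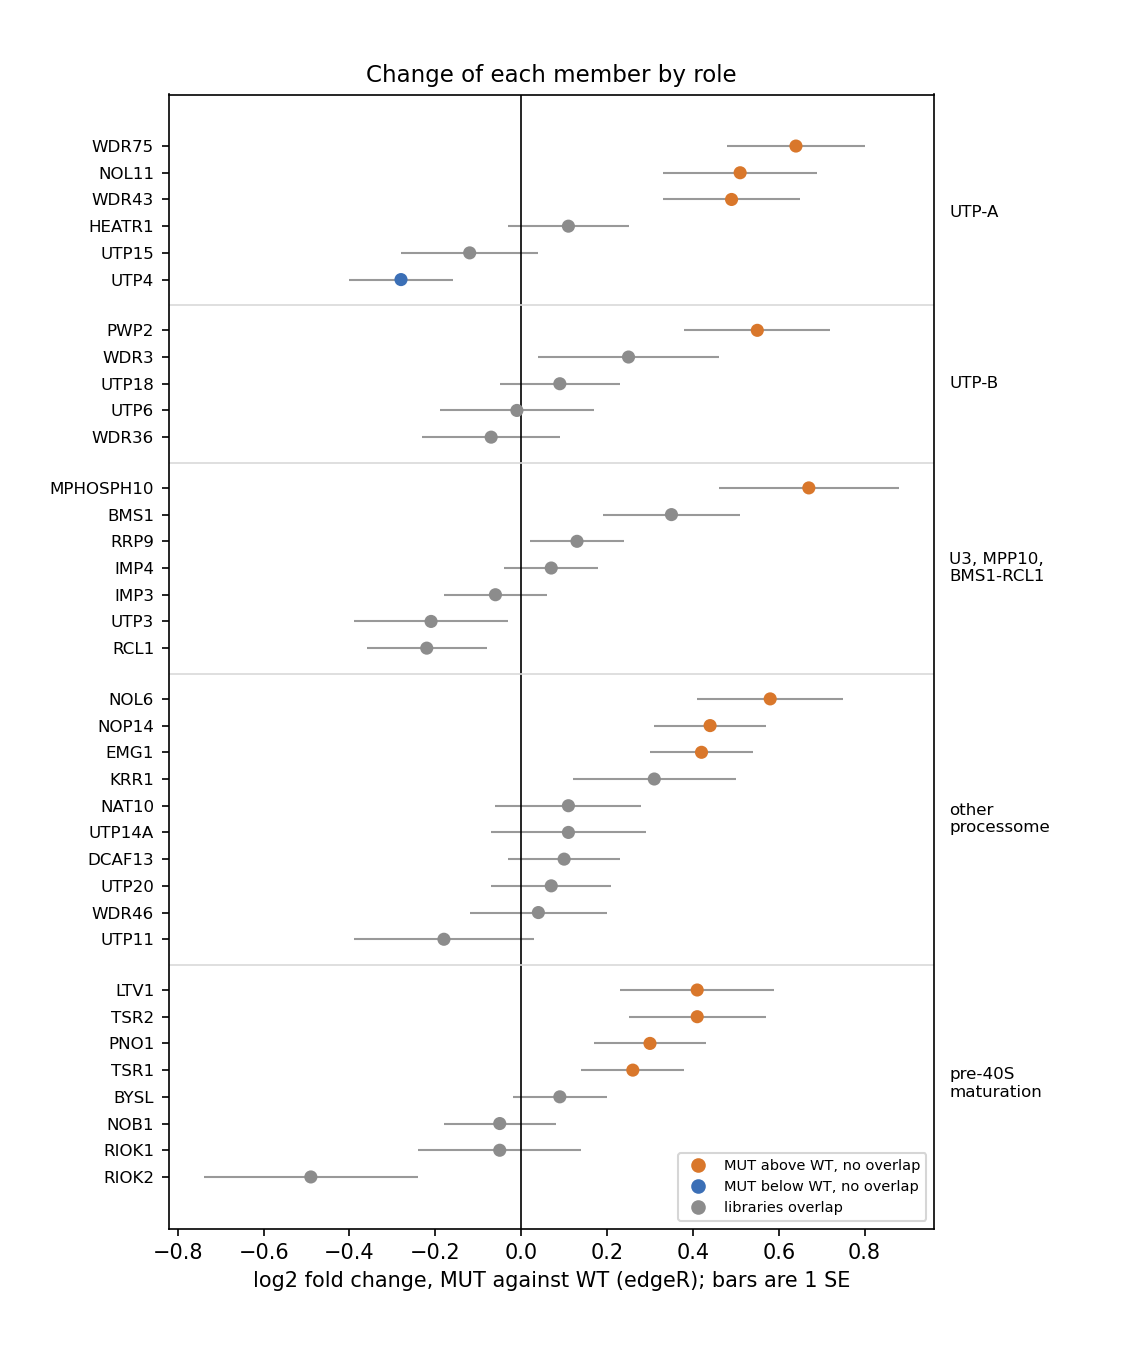
Log2 fold change of MUT against WT (x axis) for each of the 36 members (rows, grouped by role), with bars of 1 standard error. The 12 members whose MUT libraries all lie above the WT libraries occur in every role group, UTP4 is the one with all MUT libraries below, and 20 of the 36 lie within 0.25 of 0.

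The upstream sequences of the members hold some short motifs. RefSeq promoter entries of GRCh38.p14 matched 34 of the 36 members, with 35 promoters since IMP4 has 2; MPHOSPH10 and DCAF13 had no entry. In the 250 bases before the start site, searched on both strands, CCGGAAG, the core of sites bound by ETS factors, occurred in 12 of 35 member promoters (34.3%), in 14% of the promoters of tested genes and in 8.52% of all promoters. The E-box CACGTG, which MYC can bind, occurred in 6 (17.1%, against 8.16% of tested genes and 6.34% of all), CCAAT in 14 (40%, against 32.7% and 32%), GGGCGG in 25 (71.4%, against 64% and 42.6%) and TATAAA in 2 (5.71%, against 5.78% and 10.7%). No motif contains another, and all were chosen after the members' values were seen. CCGGAAG was found in 5 of the 12 members with an entry whose groups did not overlap and in 7 of the 22 whose groups did. Shown are 40-base stretches upstream of the start, on the gene's strand, for 4 members with CCGGAAG; capitals mark the motif (PWP2), its reverse complement CTTCCGG (EMG1, LTV1) or both (WDR3).
PWP2, chr21:44107303-44107342, plus strand: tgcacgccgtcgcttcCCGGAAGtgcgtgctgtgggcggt
EMG1, chr12:6970873-6970912, plus strand: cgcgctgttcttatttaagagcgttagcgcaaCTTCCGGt
LTV1, chr6:143843265-143843304, plus strand: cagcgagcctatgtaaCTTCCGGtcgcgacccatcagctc
WDR3, chr1:117929699-117929738, plus strand: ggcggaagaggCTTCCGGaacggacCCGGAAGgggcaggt
PWP2, EMG1 and LTV1 are members whose groups did not overlap, and WDR3 is one whose groups did. A match to these letters is a description of the sequence and not a measured binding site.

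Within UTP-A, the complex that starts processome assembly, 4 of 6 subunits had values above 0 and 2 below, where 48.7% of all tested genes were above 0. WDR75, a WD-repeat subunit, measured 2.64, 2.51 and 2.20 CPM in WT and 3.38, 4.59 and 3.47 CPM in MUT. The MUT libraries were all higher, with a log2 fold change of 0.64 (SE 0.16, edgeR adjusted p = 0.0744). Over the alternatives the adjusted p for WDR75 ran from 0.0096 to 0.425. WDR43 measured 6.66, 6.75 and 4.86 CPM in WT and 7.60, 9.93 and 8.25 in MUT (0.49, SE 0.16, edgeR adjusted p = 0.137). NOL11 measured 5.86, 5.75 and 4.72 CPM in WT and 6.37, 10.1 and 6.87 in MUT (0.51, SE 0.18, edgeR adjusted p = 0.17). For WDR43, WDR75 and NOL11 the groups did not overlap and MUT replicate 2 was the highest library. When MUT replicate 2 was left out, NOL11 stood at 0.29 (edgeR adjusted p = 0.282). UTP4, also known as cirhin, had the opposite sign, at 15.2, 14.7 and 17.6 CPM in WT and 13.5, 13.2 and 12.5 in MUT (-0.28, SE 0.12, edgeR adjusted p = 0.243), and -0.18 without WT replicate 3. HEATR1 (0.11), the largest UTP-A protein, and UTP15 (-0.12) overlapped between the groups.

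In UTP-B, which joins the precursor next, PWP2 stood alone. It measured 1.82, 1.56 and 2.06 CPM in WT and 2.93, 2.25 and 2.75 in MUT, with no overlap, a log2 fold change of 0.55 (SE 0.17) and an edgeR adjusted p of 0.129. WDR3 overlapped, at 1.95, 2.58 and 1.55 CPM in WT and 2.06, 2.53 and 2.70 in MUT (0.25, SE 0.21, edgeR adjusted p = 0.57). Its value was 0.49 without WT replicate 2 and 0.11 without WT replicate 3. UTP18 overlapped as well, at 5.26, 5.72 and 4.95 CPM in WT and 5.22, 6.77 and 4.91 in MUT (0.09, SE 0.14). UTP6 (-0.01) and WDR36 (-0.07) lay near 0. The median of the 5 UTP-B genes was 0.09.

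The next group held factors of the U3 particle, of the MPP10 complex and of the BMS1-RCL1 pair. MPHOSPH10, the scaffold of the MPP10 complex that binds IMP3 and IMP4, had the largest log2 fold change of all members, 0.67 (SE 0.21, edgeR adjusted p = 0.125). It measured 1.14, 1.10 and 1.27 CPM in WT and 1.42, 2.24 and 1.91 in MUT, so the groups did not overlap; these levels rest on 55 to 218 counts per library. For its partners the values lay near 0: IMP3 measured 25.6, 26.9 and 30.8 CPM in WT and 26.7, 25.9 and 27.3 in MUT (-0.06, SE 0.12), and IMP4 had a log2 fold change of 0.07 (SE 0.11). IMP3 and IMP4 libraries overlapped, as did those of UTP3 (-0.21), the human Sas10 protein, and of RRP9 (0.13), a U3 RNA-binding protein. BMS1, a GTPase, measured 1.94, 2.04 and 2.34 CPM in WT and 2.29, 3.13 and 2.61 in MUT, with MUT replicate 1 just below WT replicate 3 (0.35, SE 0.16, edgeR adjusted p = 0.279). RCL1, the partner that BMS1 brings to the processome, measured 6.68, 6.21 and 8.28 CPM in WT and 6.84, 5.47 and 5.88 in MUT (-0.22, SE 0.14, edgeR adjusted p = 0.46), overlapping with the opposite sign; RCL1 stood at -0.12 without MUT replicate 2 and at -0.08 without WT replicate 3. UTP3 stood at -0.05 without WT replicate 2 and at -0.09 without MUT replicate 1. The differences between partners were not tested.

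Among the 10 other processome factors, 9 had values above 0, where 48.7% of all tested genes did. In 3 of the 10 the groups did not overlap, all with MUT higher. Of all tested genes, 12.8% did not overlap with MUT higher and 26.1% did not overlap in either direction. NOL6, a UTP-C component, measured 1.87, 1.76 and 2.29 CPM in WT and 3.37, 2.92 and 2.51 in MUT (0.58, SE 0.17, edgeR adjusted p = 0.109). NOP14, a scaffold protein, measured 2.71, 3.18 and 2.92 CPM in WT and 3.77, 4.36 and 3.79 in MUT (0.44, SE 0.13, edgeR adjusted p = 0.109). EMG1, the methyltransferase that modifies a pseudouridine of 18S rRNA, measured 27.0, 31.2 and 30.6 CPM in WT and 38.6, 42.9 and 37.0 in MUT (0.42, SE 0.12, edgeR adjusted p = 0.111). EMG1 had the most counts among members with separate groups in the upward direction, 1321 to 4182 per library, and its MUT mean was 39.5 ± 3.09 CPM against 29.6 ± 2.30 in WT (SD, n = 3). KRR1, a KH-domain RNA-binding protein, had a value of 0.31 (SE 0.19) and overlapped; it stood at 0.11 without MUT replicate 2 and at 0.19 without WT replicate 3. The acetyltransferase NAT10 (0.11), UTP14A (0.11), which activates the RNA helicase DHX37, DCAF13 (0.10), UTP20 (0.07), WDR46 (0.04) and UTP11 (-0.18) overlapped too.

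Of the 8 late factors, 5 had values above 0 and 3 below, where 48.7% of all tested genes were above 0. TSR2, a chaperone of the ribosomal protein eS26, measured 2.10, 1.90 and 1.78 CPM in WT and 2.42, 2.98 and 2.26 in MUT (0.41, SE 0.16, edgeR adjusted p = 0.207). LTV1, an export factor released by phosphorylation, measured 2.59, 2.54 and 2.06 CPM in WT and 2.84, 3.97 and 2.75 in MUT (0.41, SE 0.18, edgeR adjusted p = 0.254). In TSR2 and LTV1 MUT replicate 2 was the highest library, and MUT replicates 1 and 3 lay close above WT. When MUT replicate 2 was left out, LTV1 stood at 0.23. PNO1, the partner of NOB1, measured 3.65, 3.67 and 3.98 CPM in WT and 4.54, 5.31 and 3.99 in MUT (0.30, SE 0.13, edgeR adjusted p = 0.258). For PNO1 the highest WT library and the lowest MUT library were almost level. TSR1, a GTPase-like factor that blocks premature subunit joining, lay between 4.6 and 5.66 CPM in WT and between 5.87 and 6.78 in MUT (0.26, SE 0.12). BYSL (0.09), NOB1 (-0.05) and the kinase RIOK1 (-0.05) overlapped. The kinase RIOK2 had the lowest value of all members, -0.49 (SE 0.25, edgeR adjusted p = 0.317). RIOK2 measured 1.14, 1.5 and 1.37 CPM in WT and 0.839, 1.25 and 0.721 in MUT, and MUT replicate 2 lay within the WT range. When MUT replicate 2 was left out its log2 fold change was -0.75 (edgeR adjusted p = 0.123); all these levels rest on 43 to 122 counts per library.

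**Figure D2:**
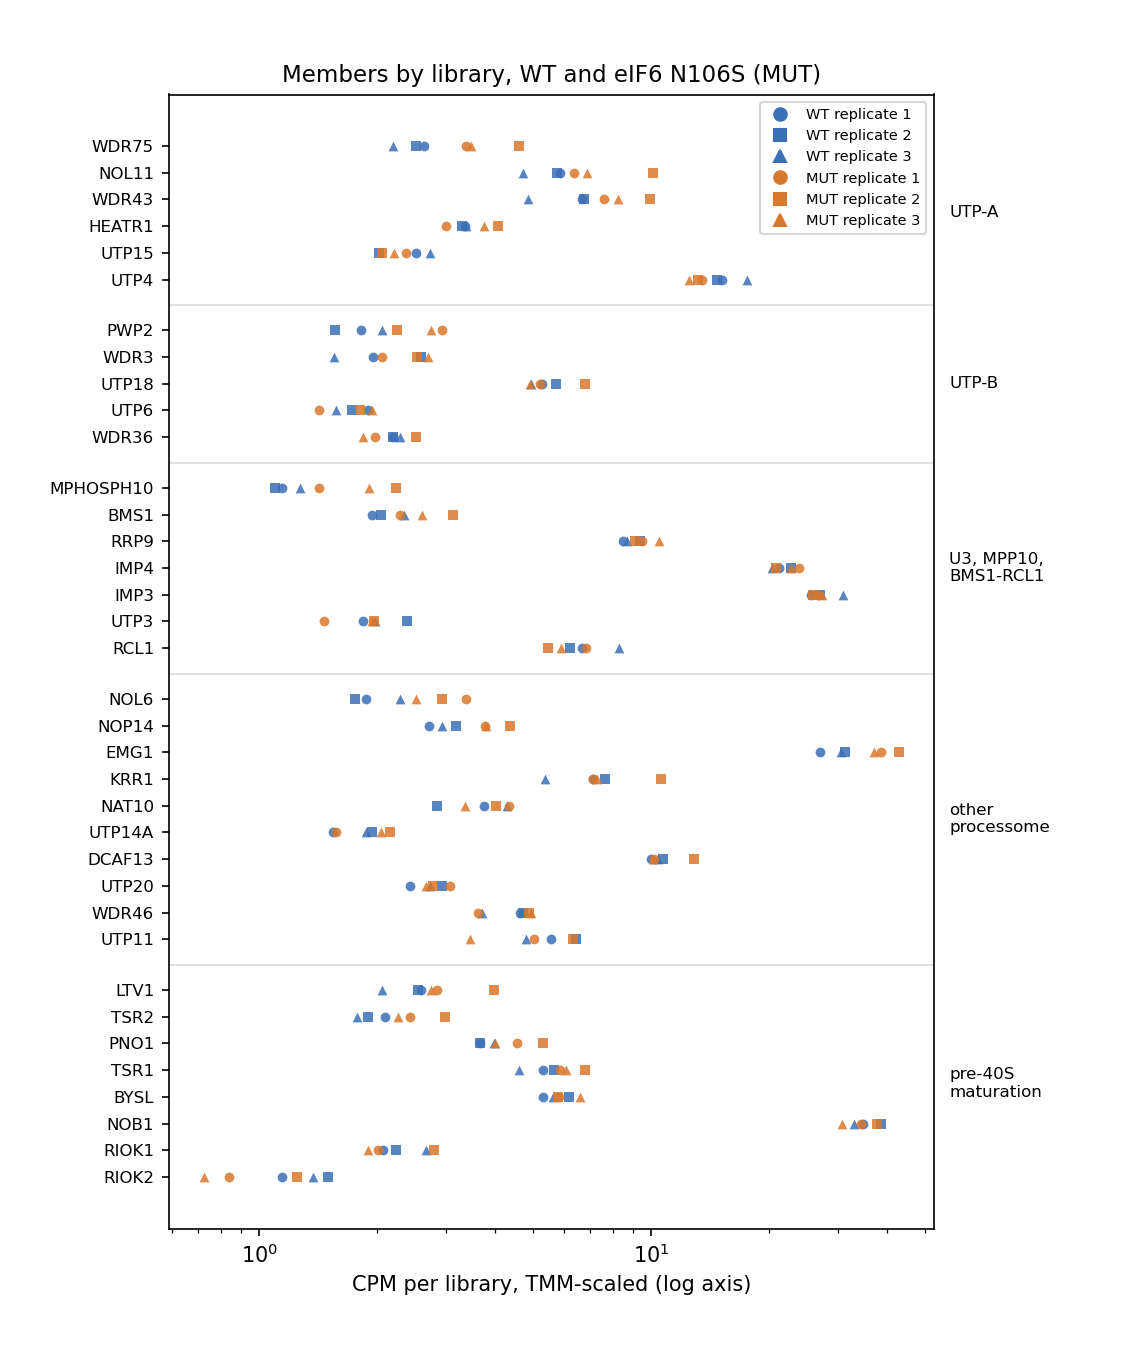
Level of each member (rows, grouped by role) in each of the 6 libraries, in TMM-scaled CPM on a log axis; blue symbols are WT, orange MUT, and the symbol shape gives the replicate. In PWP2, NOP14 and EMG1 the orange symbols form a group above the blue ones, whereas in WDR75, NOL11, LTV1 and KRR1 MUT replicate 2 (squares) lies well above MUT replicates 1 and 3.

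Member levels were highest in MUT replicate 2. The median of the members' log2 CPM, each taken relative to its own mean over the 6 libraries, was -0.09, 0.00 and -0.08 in WT and -0.01, 0.23 and 0.05 in MUT. WT replicate 2 and MUT replicate 1 were thus level. Of the 36 members, 18 had their highest value in MUT replicate 2, while 20.9% of all tested genes did. By role, the median in MUT replicate 2 was 0.35 for UTP-A, 0.20 for UTP-B, -0.03 for the U3, MPP10 and BMS1-RCL1 group, 0.28 for the other processome factors and 0.28 for the late factors. Fitted without that library, the median of the members was 0.11, 22 of 36 had values above 0, and 0 were called by edgeR, where 2.9% of all tested genes were. At an unadjusted p below 0.05 there were 8 members (22.2%), close to the 19.4% of all tested genes. With that library left out, MUT lay above WT without overlap in 14 members (38.9%, against 18% of all tested genes) and below it in 4, namely UTP4, WDR36, RIOK1 and RIOK2 (11.1%, against 20.1%). The part of its ribosomal RNA content in these values was not tested.

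**Figure D3:**
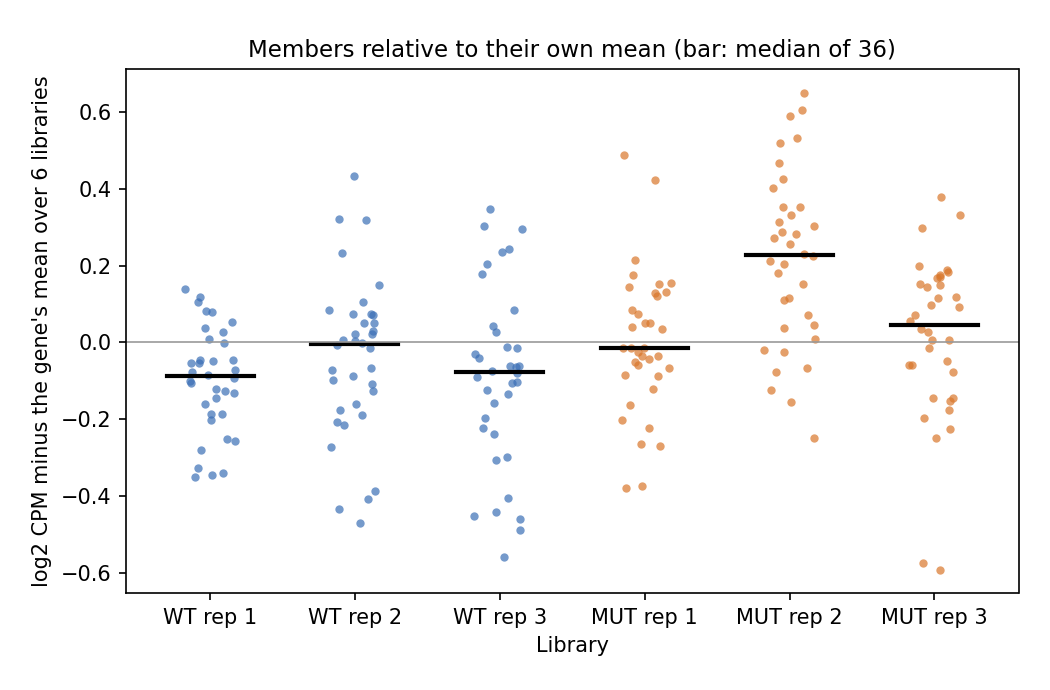
Each point is 1 of the 36 members in 1 library (x axis), as log2 CPM minus that gene's mean over the 6 libraries (y axis); black bars are medians. The bar of MUT replicate 2 lies at 0.23 and those of the other 5 libraries between -0.09 and 0.05.

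Summed over the 36 members, the libraries held 10614 to 28110 counts per library, which was 0.1% to 0.107% of the counts other than 7SL, 7SK, RPPH1 and RMRP RNA in the WT libraries and 0.128% to 0.138% in the MUT libraries. The mean share was 0.104% ± 0.00358 for WT and 0.131% ± 0.00567 for MUT (SD, n = 3 each), and the ribosomal RNA rows are part of these denominators. These shares are not TMM-scaled. The same shift was not measured for other genes, so the difference in share cannot be taken as particular to the members. On the TMM-scaled level the summed CPM was 239.6, 255.1 and 245.6 in WT and 261.2, 288.7 and 256.3 in MUT, so the groups lay next to each other without overlap.

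Per transcript length, in TPM (transcript abundance scaled to a fixed total per library), the members spanned about 2 orders of magnitude. IMP3 was highest at a mean of 7.46 TPM over the 6 libraries, followed by NOB1 (6.42), EMG1 (5.61), IMP4 (2.74) and UTP4 (2.40). WDR3 was lowest at 0.07 TPM, below UTP20 (0.0917), RIOK2 (0.123) and HEATR1 (0.125). IMP3 thus ranked above 94.3% of tested genes by mean TPM and WDR3 above 25.7%. The order of the levels holds large steps between IMP3, NOB1 and EMG1 at the top and the rest, but neighbours further down, such as RIOK2, HEATR1 and UTP15 (0.13), were nearly level. All TPM values are low because 7SL, 7SK, RPPH1 and RMRP RNA took 86.5% to 93.8% of the TPM in each library.

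UTP4 (chromosome 16, 69132649 to 69169021, GRCh38) and NOB1 (chromosome 16, 69741871 to 69754926) lie on the same chromosome arm. UTP4 had the 1 downward difference without overlap (-0.28, SE 0.12), whereas NOB1, at 33.0 to 38.5 CPM in WT and 30.7 to 37.6 in MUT, overlapped (-0.05, SE 0.13).

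Another 36 genes of small-subunit assembly, among them box C/D proteins, helicases, methyltransferases and kinases, were put on a second list. That list was drawn up with earlier results of these data known, so it is no independent check of the members. All 36 were tested and 26 had values above 0 (72.2%, against 48.7% of all tested genes). Their median was 0.10, so the 2 lists had nearly the same median. RRP7A, a UTP-C protein, rose, at 8.79, 11.1 and 10.6 CPM in WT and 15.7, 15.1 and 16.7 in MUT (0.64, SE 0.13, edgeR adjusted p = 0.0436). FBL, the methyltransferase of box C/D particles including U3, fell, at 72.6, 77.8 and 76.2 CPM in WT and 51.5, 48.8 and 50.5 in MUT (-0.59, SE 0.12, edgeR adjusted p = 0.0475). RRP7A was called in 9 of the 17 alternatives that tested it and FBL in 5 of 19. On the log2(TPM + 1) and log2(TPM + 0.1) scales FBL lay at 0.02, where the median of all genes was 0.36 and 0.49. Relative to that median, FBL lay at -0.35 and -0.47. The fits on library size alone, TPM and FPKM tested against 0 and not against the median of all genes. The row of the pseudogene RRP7BP held 56 to 139 counts per library, or 8.81% of the counts of RRP7A, at a log2 fold change of 0.29 (edgeR adjusted p = 0.565). DDX49, a helicase, measured 12, 12.9 and 13.1 CPM in WT and 17.6, 18.5 and 17.9 in MUT without overlap (0.51, SE 0.11, edgeR adjusted p = 0.0515). In this list 10 genes (27.8%, against 12.8% of all tested genes) had all MUT libraries above WT. All MUT libraries lay below WT in 3 (8.33%, against 13.4%). edgeR called 2 of the 36, 1 higher and 1 lower, where it called 1.91% of all tested genes. Both called genes lost their call in every fit that left out 1 library, except RRP7A without MUT replicate 2. With the replicate number as a block the adjusted p was 0.0517 for RRP7A and 0.0531 for FBL.

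Scaling moved the values of all genes, and the members moved with them. By library size alone all 36 members had values above 0 with a median of 0.68, but the median of all tested genes was 0.54 there, and 27 of the 36 lay above it. On the log2(TPM + 1) scale, which keeps 8 members at a minimum of 1 TPM in 3 libraries, the median was 0.48 against 0.36 for all genes. Relative to the median of all genes, the members' median lay between 0.10 and 0.18 in the fit of 6 libraries and all 19 alternatives.

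**Figure D4:**
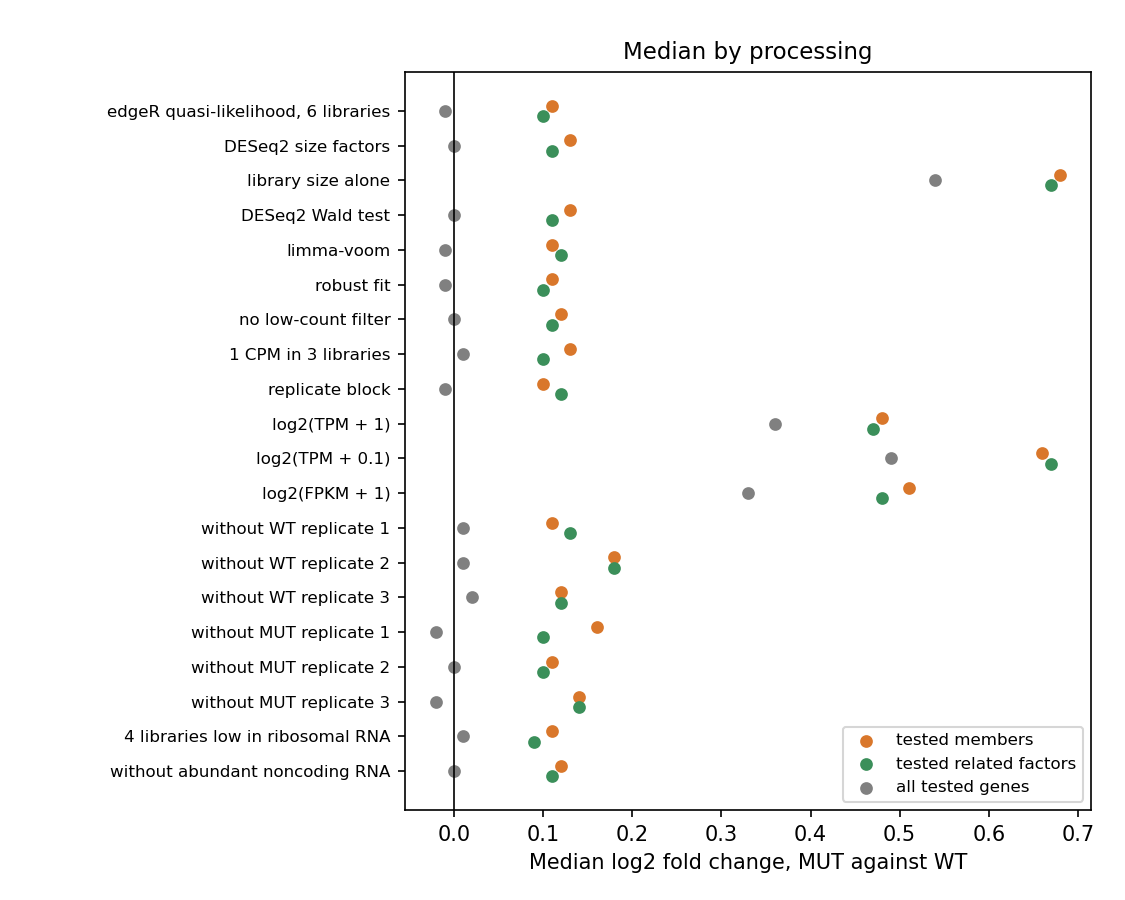
Median log2 fold change (x axis) of the tested members, of the tested genes of the second small-subunit assembly list and of all tested genes, for each way of processing the data (rows). In every row the 2 assembly lists lie to the right of all genes, by 0.08 to 0.18.

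Some rows may share reads with others. BMS1 has 21 pseudogene rows in the table that together held 120 to 367 counts per library, or 134% of the counts of BMS1 itself, and the largest, BMS1P20, had a log2 fold change of 0.52 (edgeR adjusted p = 0.221). The value of BMS1 is therefore uncertain. NOP14 overlaps NOP14-AS1, whose counts came to 77.8% of its own; the antisense row lay at 0.09 (edgeR adjusted p = 0.84), against 0.44 for NOP14. Whether the counting used strand is not given in the sources used here. Other overlapping genes with at least 10% of a member's counts were LGALS8 for HEATR1, MBTD1 for UTP18, PFDN6 for WDR46, MED20 for BYSL, SRR for TSR1 and FGD1 for TSR2, with values between -0.19 and 0.16. UTP14C, a retrogene copy of UTP14A, had 0 to 31 counts per library.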

How the data were processed

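Total RNA of 6 libraries of HCT116 cells (3 WT, 3 MUT, grouped by the sample titles) was analysed; the ribosome profiling that the series describes is not analysed here. The authors deposited expected counts, FPKM and TPM per gene symbol, the last 2 normalised by them for depth and length; RSEM 1.2.28, DESeq2 1.42.0, STAR 2.5.2b and FastQC 0.12.1, and the build hg38 (GRCh38), stand in the submitters' processing notes with no roles given. The deposited expected counts were whole numbers, so rounding changed 0 of them.

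MUT and WT counts were compared by edgeR 4.0.16 under R 4.3.3 (filterByExpr with a minimum count of 10, TMM factors, glmQLFit and glmQLFTest, no covariate), and p-values were adjusted by Benjamini-Hochberg over all 14808 tested genes, with 0.05 as threshold. Standard errors came from the fold change and its F statistic. The alternatives were DESeq2 1.42.0, limma 3.58.1 on voom or on log2(value + 1) and log2(value + 0.1), other scalings and filters, a replicate block and leaving out libraries. The procedure was checked on simulated counts. It called 3.23% of 62 genes changed 1.5-fold, 31.2% of 64 changed 2-fold and 77.3% of 66 changed 4-fold. Of unchanged genes it called 0.0631%. The members, the second assembly list and the rule for naming genes (the 3 members of each role with the smallest p, members called in any alternative, the highest and lowest by TPM, and of the second list the 3 smallest p and those called) were chosen with earlier results of these data known. The smallest chi-square per gene between 2 libraries of a group was 23.2, so none was a duplicate. Same-numbered libraries did not deviate together (correlations of -0.291, -0.0414 and 0.219), so the numbers were not treated as pairs. With 3 libraries per group this check cannot exclude pairing. Genes matched a RefSeq table of GRCh38.p14 by symbol.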

Additional observations from a re-analysis of the deposited data

How the results depend on the processing

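The median of the members kept its sign in all 19 alternatives, and with 1 library left out it ran from 0.11 to 0.18. Members called numbered 2 in DESeq2's Wald test and 4 without the low-count filter, and 0 in the other 17. Among those 17, the log2(TPM + 1) and log2(TPM + 0.1) fits tested only 8 of the 36 members and the log2(FPKM + 1) fit only 20. All genes called numbered 108 by library size alone, 764 in DESeq2's test, 552 in the robust fit, 1195 without the filter, 462 at 1 CPM in 3 libraries, 0 on log2(TPM + 1), 8 on log2(TPM + 0.1), 7 on log2(FPKM + 1) and 27 to 442 with 1 library left out. Of the second list, 4 were called in DESeq2's test, limma-voom, the robust fit, without the filter and at 1 CPM, 1 with DESeq2's size factors and without abundant noncoding RNA, 0 by library size alone, on the TPM and FPKM scales and with the replicate block, and 0 to 4 with 1 library left out. The replicate block, which rests on numbers that are not shown to pair the libraries, called 296 genes in all and 0 members, with a members' median of 0.10. The second list's median was 0.17 on log2(TPM + 0.1) relative to all genes, and 0.10 to 0.18 with 1 library left out.

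Of 611 values of single members under alternatives, 6 gained a call, 30 turned sign and 575 did neither. Of the 36 members, 25 never turned. Signs were compared after rounding. UTP6 at 0.00 was therefore not counted as turned with DESeq2's size factors, in DESeq2's Wald test, without the low-count filter and without abundant noncoding RNA. By library size alone (relative to all genes) UTP6 turned to 0.02 and RIOK1 to 0.03, and at 1 CPM in 3 libraries UTP6 to 0.01. Relative to all genes, IMP3 turned to 0.13 and NOB1 to 0.12 with TPM and a pseudocount of 1, to 0.06 and 0.07 with 0.1, and both to 0.12 with FPKM. In the 4 libraries low in ribosomal RNA UTP6 turned to 0.04, UTP18 to -0.06, UTP14A to -0.06 and DCAF13 to -0.04. With 1 library left out, WDR36 ran from -0.20 to 0.01, UTP6 from -0.10 to 0.11, UTP18 from -0.05 to 0.18, IMP3 from -0.09 to 0.03, NAT10 from -0.01 to 0.26, UTP11 from -0.38 to 0.02, WDR46 from -0.05 to 0.17, DCAF13 from -0.01 to 0.16, NOB1 from -0.10 to 0.05 and RIOK1 from -0.22 to 0.06. The cause was not tested. RIOK2 had the fewest counts of all members, 43 to 122 per library, and the largest SE, 0.25.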

Other observations

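The U3 small nucleolar RNA, the RNA of the processome, is represented by the row SNORD3A (chosen after its values were seen). It measured 263, 209 and 748 CPM in WT and 181, 172 and 295 in MUT. WT replicate 3 was the highest library and the groups overlapped (log2 fold change -0.91, SE 0.46, edgeR adjusted p = 0.323, and 0.00767 to 0.895 over the alternatives). SNORD3A is short and has near-identical copies, so its own level is uncertain.

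BUD23, the methyltransferase that modifies a guanosine of 18S rRNA (also chosen after its values were seen), measured 21.7, 23.2 and 21.5 CPM in WT and 15.2, 16.3 and 15.2 in MUT. The groups did not overlap, and the log2 fold change was -0.51 (SE 0.11, edgeR adjusted p = 0.0529, and 0.00944 to 0.977 over the alternatives). In TPM, before the median of all genes is taken off, BUD23 averaged 4.38 in WT and 4.85 in MUT. The median log2 fold change of all genes was itself 0.36 on log2(TPM + 1) and 0.49 on log2(TPM + 0.1), so these means do not show a rise relative to other genes. Its activator TRMT112 had a log2 fold change of 0.08 (SE 0.18, edgeR adjusted p = 0.856).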
